A study of Mus musculus with 13 samples.

Results

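Igf2, H19, Igf2r, Igf2bp1, Igf2bp2, Igf2bp3, Lin28a, Lin28b and Hmga2 are genes known for their roles in fetal growth. These 9 genes were chosen by name, after Igf2 had been seen to be high in Eed knockout (KO) crypts, and were followed through 13 RNA-seq libraries of mouse small intestine. All 9 were among the 21420 gene identifiers listed in the deposited tables of both sequencing runs. Which other values of these genes were known when the names were picked is not recorded. For this reason every comparison that has Eed KO libraries among the groups compared is given here as a description, with its size and error but no p-value.

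The crypt libraries came from mice of mixed C57BL/6-FVB background that started beta-naphthoflavone at an age of 6 weeks and were taken at 12 weeks. Their genotypes were wild type (WT, n = 3), Eed-/- (n = 3) and Ezh2-/- (n = 3). The organoid libraries, from epithelial cultures grown out of crypts and exposed to the compound over 10 days, were WT on FVB (n = 2) and Eed-/- on C57BL/6-FVB (n = 2). AhCre, a transgene, is named in the labels of organoids and run 440 crypts, in WT and KO alike, and floxed Eed or Ezh2 alleles in the KO. It is a recombinase under a promoter that responds to beta-naphthoflavone, so WT libraries also saw the inducer. EED and EZH2 are subunits of Polycomb repressive complex 2, which trimethylates lysine 27 of histone H3 at silent developmental genes. Each library name starts with its sequencing run: all organoids were in run 385 and all Ezh2 KO crypts in run 440, while WT and Eed KO crypts were split over both. Nothing in the labels says that replicates were separate animals or cultures, so errors and p-values measure how these libraries varied, and that variation may be technical.

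IGF2 is a secreted growth factor that signals through the IGF1 and insulin receptors, and the IGF2 receptor takes it up for breakdown. Igf2 and the noncoding RNA H19 lie side by side and are imprinted in opposite ways, Igf2 from the paternal and H19 from the maternal allele. LIN28A and LIN28B bind the precursors of let-7 microRNAs and block their maturation, let-7 in turn represses Lin28, Igf2bp and Hmga2 messages, and the IGF2BP proteins bind and stabilise messages, Igf2 among those first found.

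The let-7 sequences are shown because their seed, bases 2 to 8 from the 5′ end, is what the messages of these genes pair with. The RefSeq table used (GRCm38.p6) held 10 mature mouse let-7 sequences of this arm, and 9 share the seed in capitals below. The exception, let-7j, ends its seed in another base.
let-7a-5p: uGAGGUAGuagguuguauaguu
let-7d-5p: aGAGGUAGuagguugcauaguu
let-7g-5p: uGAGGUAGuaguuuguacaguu
let-7i-5p: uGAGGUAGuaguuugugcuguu
let-7j: uGAGGUAUuaguuugugcuguuau

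A perfect match to the shared seed reads CTACCTC on the message. It was searched on the message strand in the longest 3′ untranslated region (UTR) of each protein-coding gene of GENCODE M21 (GRCm38). Lin28b, Igf2bp1 and Hmga2 each held 4 such matches, in 4445, 6337 and 3014 bases of 3′ UTR. As many or more were present in 0.295% of 1357 UTRs of like length (80% to 125%) for Lin28b, 0.331% of 604 for Igf2bp1 and 0.123% of 2438 for Hmga2. Lin28a held 2 matches, and Igf2bp2, Igf2bp3 and Igf2r held 1 each. A single match is not rare, since 12.1% and 13.3% of UTRs as long as those of Igf2bp2 and Igf2bp3 had at least 1. Igf2 held none in 3050 bases, and H19 is a noncoding RNA with no UTR to search. Over 20936 genes with a 3′ UTR, 9.06% held a match.

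The match nearest the stop codon is shown for 4 of the genes, on the message strand with the 7 matching bases in capitals. All 4 lie on minus strands and, in each, the match is followed by an A.
Lin28b, chr10:45381022-45381044: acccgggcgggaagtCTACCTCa
Hmga2, chr10:120364224-120364246: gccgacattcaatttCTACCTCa
Igf2bp1, chr11:95961778-95961800: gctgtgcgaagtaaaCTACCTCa
Igf2bp3, chr6:49086787-49086809: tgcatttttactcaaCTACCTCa
The match starts at base 36 of the annotated 3′ UTR in Lin28b, 58 in Hmga2, 548 in Igf2bp3 and 1715 in Igf2bp1. Matches further from the stop codon are followed by T or C in Lin28b and Hmga2, and by A or T in Igf2bp1. The libraries measured messenger RNA, so mature let-7 was not analysed here, and a match is a description of the sequence, not a measured interaction.

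Each library held 11421666 to 18300644 counts. Levels are CPM, the counts of a gene scaled to a common library size after adjustment by trimmed mean of M values (TMM). Crypt fold changes were fitted with a term for the run and need not equal the ratio of levels. Called means an adjusted p under 0.05. Eed transcript was at 15.9 to 25.0 CPM in Eed KO crypts against 50.1 to 60.3 in WT crypts, and Ezh2 at 17.7 to 21.8 in Ezh2 KO crypts against 72.2 to 95.3 in WT. The mitochondrial share of counts was 3.71% to 18.0% in Eed KO crypts, 8.65% to 14.5% in WT crypts and 3.85% to 6.46% in Ezh2 KO crypts. By Xist and Ddx3y, 4 libraries had a male pattern, namely WT crypts 385_1 and 385_2 and the Eed KO organoids, and the other 9 a female one, so in run 385 sex pattern and Eed genotype cannot be told apart in crypts or organoids. The Eed KO and WT organoids also differ in strain label. In run 440 all 5 crypts had a female pattern. In bulk RNA a lower or higher level can mean a different number of expressing cells or a different amount of RNA per cell, and these cannot be told apart.

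In Eed KO crypts 7 of the 8 genes with enough counts to test were higher than in WT crypts and none was lower. Among all 14406 genes tested, 13.4% were called higher and 10.6% lower. Nothing about the 9 genes is read from that difference, as they were chosen with this comparison in view. The median log2 fold change of the 8 tested was 5.13, and for the same reason it is not weighed against that of all genes. H19 and Igf2bp1, with 3 and 9 counts over the WT crypts, could be tested only because of their Eed KO counts. The genes fell into 3 kinds. Igf2, H19, Igf2bp1, Igf2bp3 and Lin28b rose far above low WT counts. These were 13 to 26 in a WT crypt for Igf2, 6 to 15 for Igf2bp3 and at most 6 for the others. Igf2bp2 and Hmga2 rose from a higher level already present in WT, and Igf2r did not pass. Lin28a, with at most 3 counts in any library, was too low to test.

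**Figure D1:**
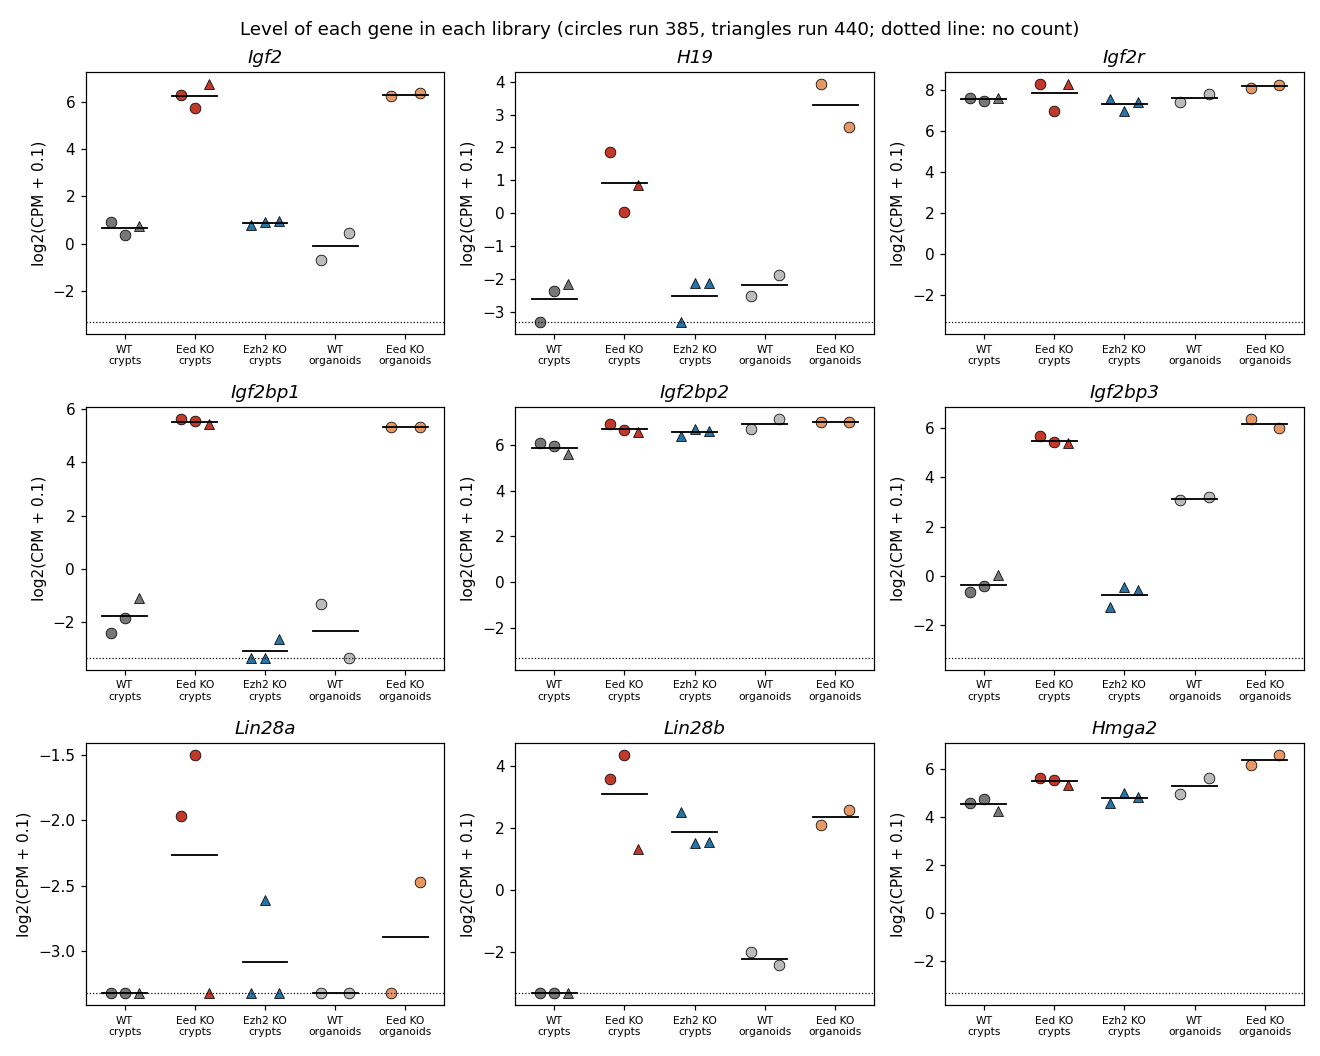
Level of each of the 9 genes in each library, as log2(CPM + 0.1), by group; circles are run 385, triangles run 440, bars the mean of a group on this scale and the dotted line a count of 0. Igf2, H19, Igf2bp1 and Igf2bp3 lie higher in every Eed KO library than in any other, while Lin28b also has counts in the 3 Ezh2 KO crypts.

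The ligand gene Igf2 (ENSMUSG00000048583, chromosome 7, 142650766 to 142666816, GRCm38) stood at 1.78, 1.19 and 1.59 CPM in WT crypts 385_1, 385_2 and 440_1 and at 77.8, 52.5 and 109 CPM in Eed KO crypts 385_1, 385_2 and 440_1. The lowest Eed KO crypt lay far above the highest WT crypt. The log2 fold change was 5.69 ± 0.27 (SE). In Ezh2 KO crypts 440_1, 440_2 and 440_3 it stayed at 1.62, 1.78 and 1.83 CPM, a range that overlaps WT (log2 fold change -0.13 ± 0.31, adjusted p = 0.927, 0.493 to 1 over the alternatives). In organoids the levels were 0.526 and 1.29 CPM in WT and 75.7 and 81.9 CPM in Eed KO, a log2 fold change of 6.46 ± 0.29. The order of group means ran from WT organoids, WT crypts and Ezh2 KO crypts, whose neighbouring ranges overlap, to Eed KO organoids and Eed KO crypts, which overlap each other. Per kb of exon, Eed KO crypts held 13.9 ± 4.90 (SD, n = 3) CPM of Igf2 and 14.4 ± 1.84 of Igf2bp2, a gene that WT crypts express at 8.08 ± 1.33. On the same length-scaled level Igf2 was at 0.266 ± 0.0525 in WT crypts.

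Igf2 is made by mesenchymal and endothelial cells in many tissues, so markers of these cells were summed over 15 genes. Their sum was 68.4 to 772 CPM in WT crypts, 151 to 340 in Eed KO crypts and 155 to 415 in Ezh2 KO crypts, and none of 14 tested was called in Eed KO crypts. Over all genes tested in that comparison, 13.4% were called higher and 10.6% lower, and no test compared the markers with these shares. In organoids the sum was 5.86 to 11.6 CPM in WT and 11.03 to 14.8 in Eed KO. Whether such cells were a source of Igf2 was not tested. Of these 15 markers, 4 had no count in any organoid (Col3a1, Lum, Cdh5 and Kdr), and Col1a1 had 5 counts in the Eed KO organoids. Vim had the most, 174 counts in WT and 224 in Eed KO organoids, while Pdgfrb had 18 and 19 and Des 0 and 9. Only 3 of the 15 could be tested in organoids, and 1 was called higher in Eed KO and none lower. This was Pdgfra, a receptor of mesenchymal cells, with 46 counts against 6. Immune markers, 13 genes, summed to 104 to 232 CPM in Eed KO crypts, 95.3 to 109 in WT crypts and at most 6.38 in organoids, and 4 of the 13 were called higher in Eed KO crypts. The 12 crypt epithelium markers all had counts in every library, and in Eed KO crypts 6 were lower (Epcam, Cdx1, Cdx2, Lgr5, Olfm4 and Lyz1) and none higher. Their sum is carried by Lyz1, a lysozyme gene of Paneth cells, at 40697 to 46547 CPM in WT crypts, 4536 to 10171 in Eed KO crypts and 10569 to 22735 in Ezh2 KO crypts. The other 11 summed to 10056 to 12749 CPM in WT crypts, 4629 to 9314 in Eed KO crypts and 11345 to 13830 in Ezh2 KO crypts. In organoids these 11 summed to 7363 to 7766 CPM in WT and 7326 to 8078 in Eed KO, ranges that overlap. The part of these marker shifts in the values of the 9 genes was not tested.

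H19 (ENSMUSG00000000031, chromosome 7, 142575529 to 142578143), whose RNA also carries the precursor of miR-675, had 0, 1 and 2 counts in the WT crypts. It had 45, 11 and 29 counts in Eed KO crypts 385_1, 385_2 and 440_1, or 3.51, 0.931 and 1.70 CPM, so every Eed KO crypt lay above every WT crypt. The pooled ratio was 26.2 (95% counting interval 8.66 to 129) and the log2 fold change 4.58 ± 0.91. Ezh2 KO crypts had 0, 2 and 2 counts, as few as WT (0.17 ± 1.42, adjusted p = 0.985, 0.763 to 1 over the alternatives). Eed KO organoids held the most, 191 and 75 counts against 1 and 2 in WT, a ratio of 88.7 (30.0 to 433). With counts this low the interval, not the ratio, carries the precision, and it covers counting error only.
miR-675-5p: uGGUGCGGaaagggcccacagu
miR-675-3p: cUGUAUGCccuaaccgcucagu
These mature sequences of H19 are shown, with bases 2 to 8 in capitals, because neither holds the let-7 seed. Levels of Igf2 and H19 were not in one proportion: the pooled counts gave 40.8 Igf2 counts per H19 count in Eed KO crypts, with 22.1, 56.5 and 63.7 in the 3 libraries, and 7.39 in Eed KO organoids, with 4.97 and 13.6 in the pair. The ranges do not overlap, and the difference was not tested.

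The Igf2 and H19 neighbourhood on chromosome 7 was read through 14 genes. Of 11 tested in crypts, 4 were higher and none lower, with a median log2 fold change of 0.78, and of 9 tested in organoids 6 were higher and none lower. Over all genes, 13.4% were called higher and 10.6% lower in crypts, and 13.5% and 4.63% in organoids. Igf2os, an RNA from the opposite strand of Igf2, stood at 0.178, 0.0917 and 0.184 CPM in WT crypts and at 3.91, 3.21 and 9.99 in Eed KO crypts. No source used here states whether the authors counted by strand, so reads of Igf2 and Igf2os cannot be told apart, although Igf2 held 10.9 to 19.9 counts for each of Igf2os in these 3 crypts. Syt8, of the synaptotagmin family, went from 1 count over the WT crypts to 8.67 to 11.8 CPM in Eed KO crypts. Tnni2, a troponin of fast muscle, had 4 WT counts and reached 2.64 to 3.67 CPM. The lysosomal protease gene Ctsd rose by a log2 fold change of 1.13 ± 0.15 in crypts and 0.80 ± 0.13 in organoids. Cd81, a tetraspanin gene, was called in organoids at 0.46 ± 0.12, and Th, of catecholamine synthesis, went there from 1 count to 43.

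Among 11 tested regulators of the locus, 2 were higher and 2 lower in Eed KO crypts, and 3 of 10 were higher and none lower in Eed KO organoids, beside the same shares over all genes. Plagl1, a zinc finger factor of the imprinted gene network that can activate Igf2, stood at 0.623, 0.917 and 1.29 CPM in WT crypts and 36.1, 30.5 and 13.6 in Eed KO crypts. Its levels in organoids were 2.78 and 2.49 in WT against 28.4 and 25.6 in Eed KO, so both tissues separated without overlap, as for Igf2. Plag1, a related factor, had log2 fold changes of 1.45 ± 0.45 in crypts and 3.44 ± 0.36 in organoids, though in crypts its ranges overlapped (0.919 to 2.94 CPM in WT, 1.47 to 12.0 in Eed KO). Ctcf, the insulator protein of the locus, was lower in Eed KO crypts (-0.44 ± 0.13), as was the maintenance DNA methyltransferase Dnmt1 (-0.97 ± 0.28). Zfp57, which protects imprints, was higher in Eed KO organoids (2.70 ± 0.47).

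The receptor Igf2r (ENSMUSG00000023830, chromosome 17, 12682406 to 12769664) did not follow its ligand. WT crypts had 198, 176 and 197 CPM and Eed KO crypts 313, 129 and 319. Eed KO crypt 385_2 lay below every WT crypt and the other two above, so the groups overlap. The log2 fold change was 0.39 ± 0.31 and was not called, and without Eed KO crypt 385_2 it was 0.72 and was called. Ezh2 KO crypts had 188, 127 and 171 CPM (-0.45 ± 0.38, adjusted p = 0.748, 0.429 to 1 over the alternatives). In organoids WT had 174 and 223 and Eed KO 275 and 310.4 CPM, groups that do not overlap, with a log2 fold change of 0.55 ± 0.16 that was not called. It was called in 6 of 9 alternatives, among them the replicate block of same-numbered libraries (0.56), where the calls over all genes rose as well. Airn, a noncoding RNA that runs antisense through Igf2r, was at 16.5, 19.4 and 4.05 CPM in the Eed KO crypts in the same order. WT crypts had 3.47, 6.51 and 6.37 CPM of Airn. The library lowest in Igf2r was the highest in Airn, but Eed KO crypt 385_1 lay above every WT crypt in both. In organoids Airn was at 2.78 and 2.74 CPM in WT and 6.38 and 8.29 in Eed KO (1.41 ± 0.29), so both genes lay higher in Eed KO there. Reads of the pair cannot be told apart where the genes overlap.

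The wider IGF signalling list held 23 genes. In crypts 16 were tested, 5 were higher and 1 lower in Eed KO (median log2 fold change 1.02), and in organoids 6 of 14 were higher and none lower (median 1.58). The shares over all genes were 13.4% higher and 10.6% lower in crypts and 13.5% and 4.63% in organoids. Grb10, an imprinted adaptor that restrains the insulin and IGF1 receptors, went from 2.94 to 5.68 CPM in WT crypts to 36.8 to 58.0 in Eed KO crypts and from 1.05 to 1.37 to 23.0 to 26.2 in organoids. Stc2, an inhibitor of the protease that frees IGFs from their binding proteins, reached 12.7 to 14.1 CPM from 0.712 to 1.96 in crypts. In the same crypts Pappa2, a protease of that family, fell by 3.76 ± 0.62 on the log2 scale. The binding protein gene Igfbp4 rose in both tissues (1.14 ± 0.25 and 3.24 ± 0.31), Igfbp1 (2.09 ± 0.60) and the adaptor gene Grb14 (1.00 ± 0.28) in crypts. Igfbp5 had 1 count over both WT organoids and 323 over both Eed KO organoids, Igfbp7 had 0 and 76 and the insulin receptor relative Insrr 0 and 101. Igfbp5, Igfbp7 and Insrr could be tested there only through their Eed KO counts. They could thus only come out higher, which lifts the organoid count and median of the list. Irs1, a substrate of the receptors, was higher in Eed KO organoids (2.84 ± 0.37).

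The receptors through which IGF2 signals were present throughout. Igf1r stood at 14.0 to 32.6 CPM in WT crypts and 10.8 to 20.8 in Eed KO crypts, with a log2 fold change of -0.50 ± 0.34. Insr stood at 68.6 to 113 and 60.0 to 75.5 CPM (-0.51 ± 0.19). Both ranges overlap between groups and neither receptor was called in crypts or in organoids. Igf1, the sister ligand, had 25 counts over the WT crypts, 18 over the Eed KO crypts and at most 2 over an organoid group, and was not tested in either Eed comparison.

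Igf2bp1 and Igf2bp3, the fetal members of the IGF2BP family, varied little between the Eed KO crypts. Igf2bp1 (ENSMUSG00000013415, chromosome 11, 95957163 to 96005940) had 1, 2 and 6 counts in WT crypts and 629, 551 and 736 in Eed KO crypts 385_1, 385_2 and 440_1, or 49.1, 46.6 and 43.2 CPM. The Eed KO crypts lie within a narrow band far above WT (log2 fold change 7.62 ± 0.40, pooled ratio 197 with a 95% counting interval of 103 to 431). Ezh2 KO crypts had 0, 0 and 1 counts, at or below the lowest WT crypt (log2 fold change -3.06 ± 0.90, adjusted p = 0.579, 0.292 to 1 over the alternatives). Organoids held 4 and 0 counts in WT and 507 and 498 in Eed KO (log2 fold change 7.89 ± 0.45). Leaving out any 1 library kept the Eed KO calls of this gene in crypts and organoids.

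Igf2bp3 (ENSMUSG00000029814, chromosome 6, 49085221 to 49214954) differed from Igf2bp1 in the WT organoids. Its levels were 0.534, 0.642 and 0.919 CPM in WT crypts, 50.4, 42.55 and 41.5 in Eed KO crypts and 0.312, 0.634 and 0.567 in Ezh2 KO crypts (-0.55 ± 0.38 against WT, adjusted p = 0.754, 0.631 to 1 over the alternatives). WT organoids had 8.27 and 9.08 CPM, above every WT crypt and below every Eed KO crypt, and Eed KO organoids had 81.8 and 63.5. WT organoids against WT crypts has no Eed KO group on either side, though Eed KO libraries shared in the run term and spread of its fit. Strain label, time of induction and sex pattern differ along with tissue in this comparison, and their parts cannot be told apart. The same limit applies to Igf2bp2 and Hmga2 below. Igf2bp3 was higher in WT organoids by a log2 fold change of 3.60 ± 0.29 (adjusted p = 1.59e-05, 3.94e-06 to 0.000218 over the alternatives). The log2 fold change on loss of Eed was 5.97 ± 0.30 in crypts and 3.06 ± 0.18 in organoids. Of the 8 genes, Igf2bp3 was the 1 past the threshold for a difference between these values (1.13% of 14761 genes were called with a larger value in crypts and 2.99% with a smaller one), and this too is a description, since it rests on Eed KO libraries. All 5 groups differ in level from their neighbours in the order beyond their ranges, except Ezh2 KO and WT crypts.

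Igf2bp2 (ENSMUSG00000033581, chromosome 16, 22059009 to 22163299), the adult member of the family and a gene of metabolic tissues, was at 68.2, 62.3 and 48.9 CPM in WT crypts. Eed KO crypts had 122, 100.5 and 96.5 CPM and Ezh2 KO crypts 85.6, 104 and 97.9 CPM. Both KO groups lay above all WT crypts and overlapped each other. The log2 fold change was 0.85 ± 0.15 in Eed KO crypts and 0.90 ± 0.18 in Ezh2 KO crypts (adjusted p = 0.551, higher in 3 of 3 libraries; 0.00678 by DESeq2 and up to 1 over the alternatives). WT organoids, at 106 and 141 CPM, were above WT crypts by a log2 fold change of 0.96 ± 0.17 (adjusted p = 0.00171, 0.00126 to 0.0270 over the alternatives). Eed KO organoids, at 128.6 and 129.5 CPM, lay between the 2 WT organoids (0.06 ± 0.16).

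**Figure D2:**
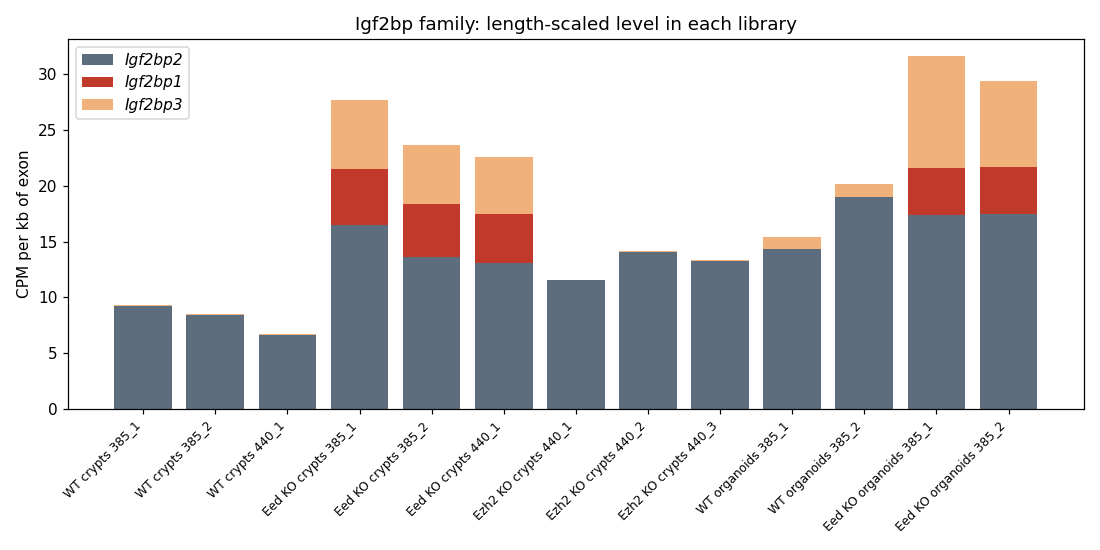
Level of Igf2bp1, Igf2bp2 and Igf2bp3 in each of the 13 libraries, stacked, in CPM per kb of exon. Igf2bp2 alone fills nearly all of the bar in WT and Ezh2 KO crypts, and Igf2bp1 and Igf2bp3 appear as further blocks in each Eed KO library.

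Scaled by exon length, the make-up of the family can be compared between genes. Igf2bp2 made up 97.8% to 99.2% of the family sum in WT crypts, 99.4% to 99.7% in Ezh2 KO crypts and 93.2% to 94.5% in WT organoids. In Eed KO crypts it made up 57.5% to 59.4%, with Igf2bp1 at 18.3% to 20.4% and Igf2bp3 at 22.1% to 22.5%. In Eed KO organoids the shares were 55.0% to 59.5%, 13.2% to 14.1% and 26.5% to 31.8% in that order. The shares in Eed KO libraries do not overlap those of any other group, and they sat close together over both sequencing runs.

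Lin28a (ENSMUSG00000050966, chromosome 4, 134003330 to 134018841) was all but undetected. It had no count in the WT crypts, 2, 3 and 0 in Eed KO crypts, 0, 1 and 0 in Ezh2 KO crypts, none in WT organoids and 0 and 1 in Eed KO organoids. With 0 counts over the WT crypts the data allow up to 0.0780 CPM there. Its level in Eed KO crypts was 0.137 ± 0.128 CPM (SD, n = 3), too low to describe a difference at this depth.

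Lin28b (ENSMUSG00000063804, chromosome 10, 45376620 to 45470201) had counts in every library of both crypt knockouts and in no WT crypt. Eed KO crypts had 153, 244 and 41 counts in 385_1, 385_2 and 440_1, or 11.9, 20.6 and 2.41 CPM, at least 135-fold higher than the floor of 3 counts over the WT group. Ezh2 KO crypts had 90, 44 and 45 counts, or 5.62, 2.79 and 2.84 CPM, at least 48.2-fold higher than the same floor. No WT library overlaps either KO group, and the Ezh2 KO crypts sit within the range of the Eed KO crypts.

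By edgeR the Ezh2 comparison of Lin28b just missed the threshold, at adjusted p = 0.0686 with higher values in 3 of 3 libraries. It was called by DESeq2 (adjusted p = 2.33e-09), with no low-count filter (0.00301) and without WT crypt 440_1 (0.00483), and the largest adjusted p over the alternatives was 0.311. Of the 8 genes tested in Ezh2 KO crypts, edgeR called none higher or lower, where 0% of 14406 genes were called higher and 0.0208% lower. Before adjustment 4 had p under 0.05, Lin28b, Igf2bp1, Igf2bp2 and Hmga2, and DESeq2 called 2, Lin28b and Igf2bp2. The same counts over all genes were 1179 before adjustment in edgeR and, by DESeq2, 34 upward and 34 downward.

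Its level differed between the runs. The group mean of Lin28b was 11.7 ± 9.12 CPM in Eed KO crypts and 3.75 ± 1.62 in Ezh2 KO crypts (SD, n = 3 each), but both high Eed KO libraries were in run 385. Within run 440 the single Eed KO crypt, at 2.41 CPM, was lower than each of the 3 Ezh2 KO crypts. Fitted with the run as a term, Eed KO against Ezh2 KO gave a log2 fold change of -0.61 ± 0.58, and without the run term 1.64 ± 0.73, so the direction turned with this choice. Against Ezh2 KO crypts, 4 of the 8 genes were called higher in Eed KO crypts, namely Igf2, H19, Igf2bp1 and Igf2bp3, where 12% of all genes were. Eed KO libraries are shared by this comparison and the one with WT.

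In organoids Lin28b had 2 and 1 counts in WT and 53 and 74 in Eed KO, or 4.23 and 5.96 CPM, a ratio of 42.3 (95% counting interval 14.2 to 208) and a log2 fold change of 5.30 ± 0.54. Together with Igf2, H19, Igf2bp1, Igf2bp3 and Hmga2 it made 6 of 8 tested genes called higher in Eed KO organoids and none lower, where 13.5% of 12958 genes were called higher and 4.63% lower. As in crypts, nothing is read from that difference. With same-numbered organoids as a replicate block, 7 of these 8 were called, Igf2r being added, and the calls over all genes rose as well.

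Hmga2 (ENSMUSG00000056758, chromosome 10, 120361275 to 120476469) encodes a chromatin architectural protein of the embryo and is a classic let-7 target. WT crypts had 24.2, 26.95 and 19.1 CPM and Eed KO crypts 49.4, 46.4 and 40.0, with no overlap (log2 fold change 0.96 ± 0.15). Ezh2 KO crypts had 23.7, 31.9 and 28.3 CPM, overlapping WT (0.49 ± 0.19, adjusted p = 0.594, 0.460 to 1 over the alternatives). Within run 440 alone the Eed KO crypt stood at 40.0 CPM against 19.1 in WT and at most 31.9 in Ezh2 KO crypts, a fitted log2 fold change of 1.19 against WT. It was not called there, in a fit with 1 WT and 1 Eed KO library whose spread comes from the Ezh2 KO crypts. Organoids had 31.4 and 49.8 CPM in WT and 71.1 and 96.4 in Eed KO (1.05 ± 0.26), a call that was lost without WT organoid 385_1 (0.74) or Eed KO organoid 385_2 (0.80). WT organoids were above WT crypts by 0.69 ± 0.22 (adjusted p = 0.0385, 0.0172 to 0.382 over the alternatives), and this call was lost without any of 4 single libraries, WT crypt 385_1, WT crypt 385_2, Eed KO crypt 440_1 or WT organoid 385_2. With Igf2bp2 and Igf2bp3 it made 3 of 8 genes called higher in WT organoids, where 9.17% of 14761 genes were. Igf2 (-0.57 ± 0.40, adjusted p = 0.330), Igf2r (0.16 ± 0.32, 0.761) and Igf2bp1 (-0.48 ± 0.89, 0.736) were not called there, and H19 and Lin28b were at or under the count floor in both WT groups.

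**Figure D3:**
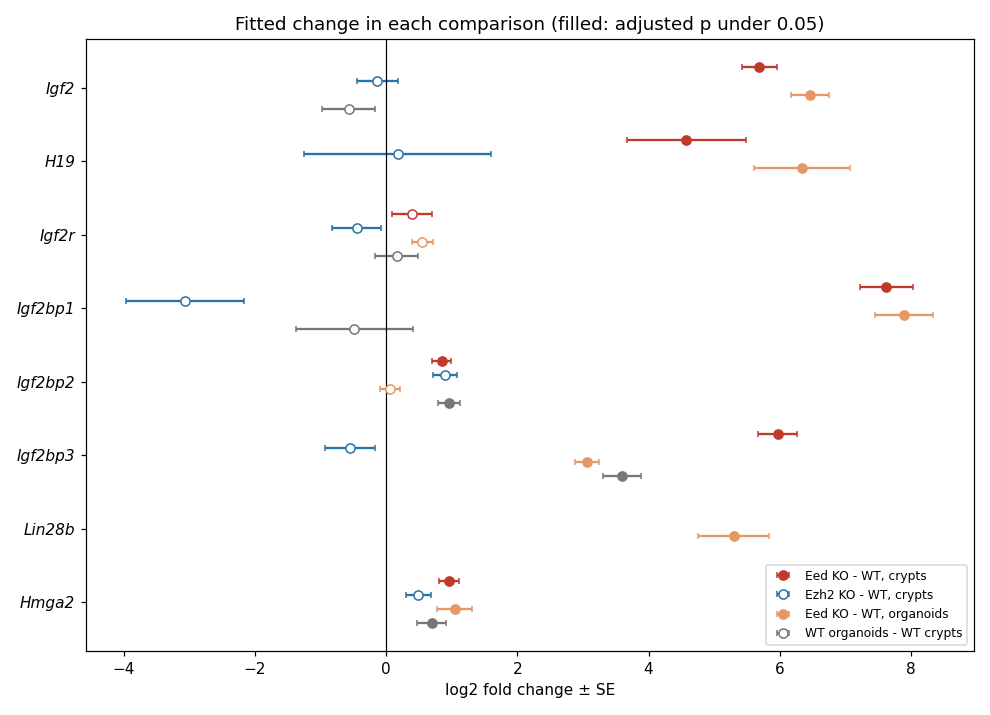
Fitted log2 fold change with its SE (bars) for 8 of the genes in 4 comparisons; filled points passed the threshold. Values of Lin28b in the crypt comparisons and of H19 and Lin28b between WT organoids and WT crypts are left out, since 1 group had no count or both groups were at or under the floor of 3 counts; the other H19 points and the Lin28b organoid point rest on a WT group with 3 counts. The Eed KO points of Igf2, H19, Igf2bp1 and Igf2bp3 lie beyond 3 on the log2 scale in both tissues, and no Ezh2 KO point is filled.

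Genes on either side of the let-7 step were read as a pair of lists. Of 16 tested genes of let-7 processing, 1 was higher and 2 lower in Eed KO crypts (median log2 fold change -0.19), and 2 were higher and none lower in Eed KO organoids (0.15). The 1 higher in both tissues was Trim71, a let-7 target that also acts on the microRNA machinery, with 0 counts over WT crypts and 39 over Eed KO crypts, and 1 and 76 over the organoid groups. Dgcr8, a subunit of the microprocessor that cuts primary microRNAs, fell by 0.64 ± 0.14 in Eed KO crypts and the RNA-binding protein gene Msi1 by 1.35 ± 0.25. The Argonaute gene Ago4 was higher in Eed KO organoids (1.25 ± 0.29). Dicer1 (-0.46 ± 0.15), the terminal uridylyltransferase gene Zcchc11 (-0.32 ± 0.26) and Dis3l2 (-0.16 ± 0.19), whose products act on let-7 precursors, were not called in crypts.

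Of 21 other known let-7 targets, 5 were higher and 5 lower in Eed KO crypts, with a median of -0.07. In organoids 5 of 20 were higher and 1 lower, with a median of 0.10. For both let-7 lists the shares over all genes were 13.4% higher and 10.6% lower in crypts and 13.5% and 4.63% in organoids, and no test compared a list with these shares. Higher in both tissues were Trim71, the G1 cyclins Ccnd2 (2.09 ± 0.28 and 1.36 ± 0.15) and Ccnd1 (1.14 ± 0.20 and 0.82 ± 0.15) and the transcription factor Arid3a (1.55 ± 0.25 and 1.43 ± 0.28). The microtubule-severing gene Fign had 2 counts over WT crypts, 120 over Eed KO crypts and 36 over Ezh2 KO crypts. Lower in both was the replication nuclease gene Dna2 (-1.30 ± 0.14 and -0.63 ± 0.13), and the cyclin-dependent kinase gene Cdk6 fell by 1.07 ± 0.22 in crypts. Trim71 is on both lists. In Ezh2 KO crypts edgeR called none of the listed genes of these 5 lists.

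**Figure D4:**
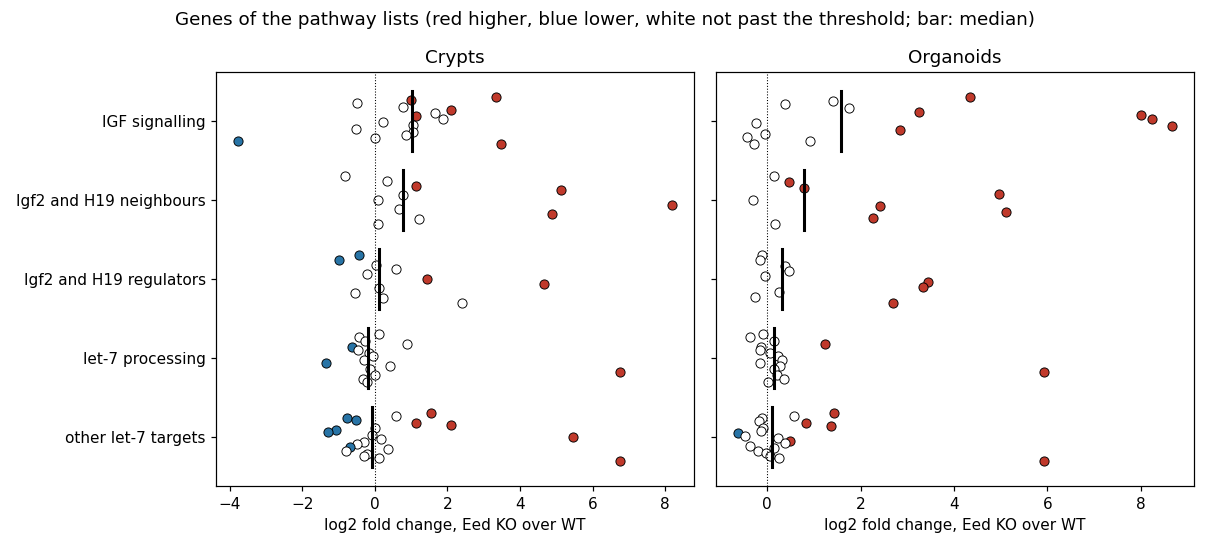
Log2 fold change of each tested gene of 5 lists in Eed KO against WT crypts (left) and organoids (right), with the list median as a bar. Red points passed the threshold upward and blue points downward. Medians of both let-7 lists lie near 0, at -0.19 and -0.07 in crypts, and those of IGF signalling at 1.02 and 1.58; Syt8, Trim71 and Fign in crypts and Insrr, Igfbp5, Igfbp7, Th and Trim71 in organoids had at most 2 WT counts, so their place depends on the prior count.

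For each gene the pattern over the 13 libraries was compared with all other genes by Pearson's r on log2 CPM, as a description, since libraries of a group share tissue, genotype and run. Esx1, Dmrt3 and Hoxc13, homeobox and doublesex-related developmental factors, were most like Igf2 (r = 0.990, 0.989 and 0.988). En2, Sp8 and Hoxa13 were most like Igf2bp1 (0.990, 0.989 and 0.989), and Plk2, Abcc4 and Vsig1 most like Igf2bp3 (0.987, 0.985 and 0.985). Lin28b was most like the neuronal splicing factor gene Nova2 (0.941), the let-7 target Fign (0.941) and the Wnt receptor gene Fzd3 (0.928). H19 was most like Spp1 (0.968), Frmd6 and Ndnf. Igf2r was most like Il34 (0.913), Igf2bp2 like Klhl2 (0.932) and Hmga2 like Hspbap1 (0.929).

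Start sites were read from RefSeq (GRCm38.p6), which held promoters for 7 of the 9 genes, H19 and Igf2bp1 not being matched. Over the 250 bases before the start, CG dinucleotides were counted, since CG-rich starts are the usual sites of Polycomb binding. The median of 32851 promoters was 6. Igf2bp2 had 40 (1.31% of promoters had as many or more), Igf2r 27 (8.56%) and Igf2bp3 21 (16.3%). Hmga2 had 8, Lin28a 7 and Lin28b 6 (50.4%), and the 4 starts of Igf2 had 1, 10, 22 and 6. The starts of both genes below are shown with CG in capitals, because Igf2bp3 and Lin28b were both near or at 0 in WT crypts and differ in CG content.
Igf2bp3, chr6:49214955-49215204, minus strand: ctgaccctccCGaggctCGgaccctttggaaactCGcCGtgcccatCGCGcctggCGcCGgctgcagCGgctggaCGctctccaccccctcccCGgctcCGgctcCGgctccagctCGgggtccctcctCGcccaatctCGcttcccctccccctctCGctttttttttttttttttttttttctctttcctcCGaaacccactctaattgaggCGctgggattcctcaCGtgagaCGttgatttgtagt
Lin28b, chr10:45470202-45470451, minus strand: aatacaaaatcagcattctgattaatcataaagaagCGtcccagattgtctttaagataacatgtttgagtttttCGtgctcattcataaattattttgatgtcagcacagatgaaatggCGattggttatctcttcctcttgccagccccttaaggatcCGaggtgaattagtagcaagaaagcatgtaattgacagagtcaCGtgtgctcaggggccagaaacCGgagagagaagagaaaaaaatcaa
In WT crypts Igf2r, Igf2bp2 and Hmga2 stood at 20.5 ± 1.35, 8.08 ± 1.33 and 3.46 ± 0.587 CPM per kb of exon (SD, n = 3), so genes with a level in WT crypts included both CG-rich starts and the start of Hmga2 with 8. Histone marks at these starts were not analysed here.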

How the data were processed

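Strand-specific libraries of polyadenylated RNA were made with the TruSeq kit, per the labels' protocols. For each run the authors deposited 1 table of unnormalised counts by Ensembl gene, per the file headers. The submitters' processing notes name HTSeq, DESeq2, TopHat2 2.0.12, Bowtie 0.12.9 and GRCm38 and give no roles. From these counts, TMM-scaled CPM and quasi-likelihood F tests (robust) were computed with edgeR 4.0.16 in R 4.3.3, on genes passing its low-count filter (minimum 10, total 15), with Benjamini-Hochberg adjustment and a threshold of 0.05. The 9 crypts were fitted with group and run (14406 genes, 5 residual degrees of freedom), the 4 organoids alone (12958 genes, 2) and all 13 libraries for comparisons across tissues (14761 genes, 7). Eed KO libraries thus also shaped the run term and spread behind Ezh2 KO against WT crypts and WT organoids against WT crypts. SEs were derived from F. A gene near 0 in WT can pass the low-count filter through KO libraries alone, and can then only come out higher. This holds for the member and list counts and for the shares over all genes. The alternatives were DESeq2 1.42.0, other scaling, no filter, single runs, a replicate block and leaving out each library. Same-numbered libraries deviated together (correlations 0.166, 0.360 and 0.329 in crypts, 0.259 in organoids; 0.145 between both run 385 pairs taken within the run). The 3 crypt values also hold shifts between the runs, and differently numbered libraries were not compared, so pairing was not established. The main fits do not pair libraries, and the replicate block does. Replicates differed by more than sampling noise. A group at 0 was set to a floor of 3 counts over its libraries, and floors and intervals cover only counting error, as PCR duplicates are not independent molecules. Named genes were the 9 members, the called genes of each list (at most 6 by size), genes they act through and the 3 most alike in pattern. The members, lists and rules were chosen with earlier results of these data known. The fits were tested on simulated data.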

Additional observations from a re-analysis of the deposited data

Results flagged for a closer look

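For Igf2bp3 the fitted log2 fold change on loss of Eed was larger in crypts than in organoids by 2.88 ± 0.35 (SE). It is listed here because that difference lay past the threshold of the interaction term in edgeR. Eed KO libraries were higher than WT in 3 of 3 crypts and 2 of 2 organoids. The WT levels were 0.698 ± 0.199 CPM in crypts (n = 3) and 8.68 ± 0.574 in organoids (n = 2), and the Eed KO levels 44.8 ± 4.86 and 72.7 ± 12.9 (SD). The gene was named with Eed KO results known, so this is a description of these libraries and not a test. Besides, the tissues also differ in strain label, time of induction and sex pattern, whose part was not tested.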

How the results depend on the processing

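Of the 8 genes tested in each comparison, the calls of Igf2, Igf2bp1, Igf2bp3 and Lin28b in Eed KO crypts and organoids were kept under every alternative run. As the genes were chosen with Igf2 in Eed KO crypts known, a kept call describes these libraries and adds no test. In Eed KO crypts, H19 (3.84) and Hmga2 (1.19) were not called in run 440 alone, where each arm has 1 library and the spread comes from the Ezh2 KO crypts. Wherever an arm is left with 1 library, it is assumed to vary like the other groups, and a call lost there says nothing about the size of the change. With no low-count filter the organoid call of Hmga2 was lost (1.03). Values that turned direction were all uncalled: in Ezh2 KO crypts Igf2 (0.17 in run 440, 0.19 with no run term) and H19 (-0.46 in run 440); for Eed KO against Ezh2 KO, Igf2bp2 (0.068 without TMM, 0.094 in run 440, 0.16 with no run term) and Lin28b (1.64 with no run term); and in run 385 alone Igf2bp1 between WT organoids and crypts (0.22) and between the Eed effects (0.48). Leaving out single libraries moved such values across 0: in Ezh2 KO crypts Igf2 from -0.51 to 0.17 and H19 from -0.46 to 1.17; for Eed KO against Ezh2 KO, Igf2bp2 from -0.32 to 0.033 and Lin28b from -0.77 to 2.11; in Eed KO organoids Igf2bp2 from -0.14 to 0.29; between WT organoids and crypts Igf2bp1 from -4.68 to 0.41, H19 from -0.082 to 1.32 and Igf2r from -0.023 to 0.37; between the Eed effects Hmga2 from -0.46 to 0.20, Igf2bp1 from -4.51 to 0.58 and Igf2r from -0.50 to 0.21.

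Counts over all genes moved more. Eed KO against WT crypts gave 3463 calls, 1274 in run 440 alone, 2268 with no run term and 1589 with the replicate block (fitted without the Ezh2 KO crypts), which kept all 7 member calls. Organoids gave 2352, and 3902 with the replicate block, which added Igf2r. Ezh2 KO gave 3, 8 with no filter, 68 by DESeq2 and 6 with no run term. The difference between Eed effects gave 608, and 1354 in run 385 alone. Without single libraries the counts ran from 2140 to 4145 (Eed KO crypts; 2140 without WT crypt 385_2, 2224 without Eed KO crypt 385_1), 1 to 513 (Ezh2 KO; highest without WT crypt 440_1), 1816 to 4193 (Eed KO against Ezh2 KO, lowest without Ezh2 KO crypt 440_2), 1339 to 2268 (organoids, lowest without WT organoid 385_1), 2084 to 4397 (WT organoids against crypts, with 2555 without WT organoid 385_2 and 2635 without WT crypt 385_2) and 152 to 1284 (between Eed effects; 152, 180, 258, 286, 342 and 350 without WT organoid 385_1, WT organoid 385_2, WT crypt 385_2, Eed KO organoid 385_1, Eed KO organoid 385_2 and Eed KO crypt 385_1, and 1243 and 1284 without WT and Eed KO crypt 440_1). Without TMM, 75.5% of calls in Eed KO crypts were upward, against 55.8% with it. The cause of these shifts was not tested. The alternatives for Eed KO against Ezh2 KO were chosen after seeing the data. Where WT had 0 to 3 counts (H19, Lin28b), depth limits the size of the fold, and Lin28a could not be tested.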
